A study of Caenorhabditis elegans with 12 samples.

Results

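A set of genes that mark the intestine of Caenorhabditis elegans were followed through an experiment on mitochondrial stress: elt-2, elt-4, elt-7, ges-1, pho-1, act-5, ifb-2 and pept-1. They were listed by name and role, with no measured value in the rule, and are 8 of the 46245 genes in the deposited table. Earlier results of these data were known when they were chosen. Per the labels the samples are mRNA of whole glp-4(bn2) worms (the text of the study speaks of wild-type animals), raised on RNAi bacteria at 20 °C and taken on day 1 of adulthood. The 12 libraries form 6 groups of 2: hda-1+atp-2 RNAi, hda-1 RNAi, dve-1+atp-2 RNAi, dve-1 RNAi, L4440+atp-2 RNAi and L4440 RNAi. L4440 is the RNAi vector with no insert. HDA-1 is a histone deacetylase, DVE-1 a transcription factor with homeodomains that takes part in the unfolded protein response of mitochondria (UPRmt), and ATP-2 a catalytic subunit of ATP synthase. Per the labels the atp-2 bacteria were added 30 hours after the start on the other clones, while the methods of the study give another timing for mRNA sequencing. The study asked what hda-1 and dve-1 contribute to the response to atp-2 RNAi, and the intestine is a main site where that response is scored with reporters.

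The worm intestine is a simple tube of large epithelial cells that takes up food, stores fat and makes yolk. GATA transcription factors specify it in the embryo, and ELT-2 then keeps its genes on through adult life, with ELT-7 overlapping in function. Its apical face carries a brush border of actin microvilli anchored in a terminal web of intermediate filaments, where digestive enzymes and the peptide transporter PEPT-1 meet the food. glp-4(bn2) is a mutation that, at high temperature, keeps the germ line from growing, and all 6 groups carry it. RNAi by feeding acts in most tissues of the worm, and RNA of whole worms does not show in which tissue a knockdown acted.

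On the ce11 (WBcel235) assembly, elt-2 lies on chromosome X at 10481240 to 10483441 and elt-4 just upstream of it on the same strand at 10475527 to 10475959. The gap of 5280 nt between them holds 2 other genes, C39B10.7 and C33D3.6. elt-7 (chromosome V, 4770670 to 4773086) and ges-1 (chromosome V, 1427653 to 1432137) share a chromosome, as do pho-1 (chromosome II, 5233156 to 5235846) and ifb-2 (chromosome II, 5750188 to 5754140). act-5 lies on chromosome III at 13604412 to 13606066, and pept-1 on chromosome X at 6456872 to 6461767. All 8 are protein-coding. Annotated exons sum to 388 nt for elt-4, the shortest, and to 2795 nt for pept-1, the longest. Only pho-1 of the 8 shares exon sequence with another gene: 120 nt overlap EGAP2.1 on the opposite strand, which reached at most 3.55 FPKM in any group.

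The values are FPKM, a fragment count set relative to transcript length and sequencing depth, with 1 value per gene and group in which the authors combined both libraries. There is therefore no spread between replicates, no test and no p-value below. Log2 ratios and the calls made from them use (FPKM + 1), which understates the change of low genes. Fold ratios, percentages of a control and counting intervals use FPKM with nothing added, so for low genes they show larger changes. A gene was called higher or lower at a 2-fold or larger ratio with at least 5 FPKM in the higher group, and such calls describe the size of a difference between these libraries. The 13337 genes with a mean of at least 1 FPKM over the 6 groups were kept as the background, and all 8 intestinal genes were among them. The steps between low FPKM values put the depth at about 16200000 to 18700000 fragments per group. From these, 95% intervals were worked out for levels (Poisson) and for ratios (exact binomial), and they are approximate and cover counting error only. In extracts of whole worms, fewer intestinal cells and less RNA per cell cannot be told apart.

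The RNAi targets were read first. dve-1 was at 14.3 FPKM in dve-1+atp-2 RNAi and 11.1 FPKM in dve-1 RNAi, against 19.6 FPKM in L4440+atp-2 RNAi and 25.4 FPKM in L4440 RNAi. atp-2 with atp-2 RNAi stood at 64.3% of its level without it in the columns that the table labels as hda-1 RNAi, at 38.8% in dve-1 RNAi and at 54.6% in L4440. hda-1 went against its label, at 811 FPKM in the column for hda-1+atp-2 RNAi and 1207 FPKM in that for hda-1 RNAi, against 21.04 FPKM in L4440+atp-2 RNAi and 18.8 FPKM in L4440 RNAi. One FPKM value per gene does not separate fragments of the worm's own hda-1 mRNA from fragments of the RNAi sequence, and this was not tested, so these values do not show whether hda-1 was reduced. The same limit applies to dve-1 and atp-2 under their own RNAi, so their values may not give the depth of those knockdowns. The columns are called the hda-1+atp-2-labelled and the hda-1-labelled column here, and every direction given for them is a difference between labelled columns.

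dve-1 RNAi without atp-2 RNAi was the comparison in which most of the 8 genes were called: 3 of 8, with elt-2 and elt-4 higher and pho-1 lower, where 9.31% of all kept genes were called (7.08% higher and 2.23% lower). When the columns were rescaled by median-of-ratios or upper-quartile factors the count was again 3, but the split became 1 higher (elt-4) and 2 lower (pho-1 and act-5). Over all kept genes the same rescaling by median-of-ratios turned 944 higher and 298 lower calls into 777 and 462. With atp-2 RNAi present, dve-1 RNAi left 1 of 8 called, pho-1 lower, beside 7.20% of all kept genes (2.39% lower). In the hda-1-labelled columns, 0 of 8 were called without atp-2 RNAi, beside 12.0% of all kept genes, and 1 of 8 with it, ges-1 lower, beside 12.8% (4.34% lower), a share like that of the background. atp-2 RNAi itself called 0 of 8 in the hda-1-labelled columns (1.39% of all kept genes), 1 of 8 in dve-1 RNAi, pept-1 higher (2.56%, of which higher 0.997%), and 0 of 8 in L4440 (2.54%). The 4 comparisons against L4440 share control columns, and so do the 2 differences of atp-2 effects given further on.

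**Figure D1:**
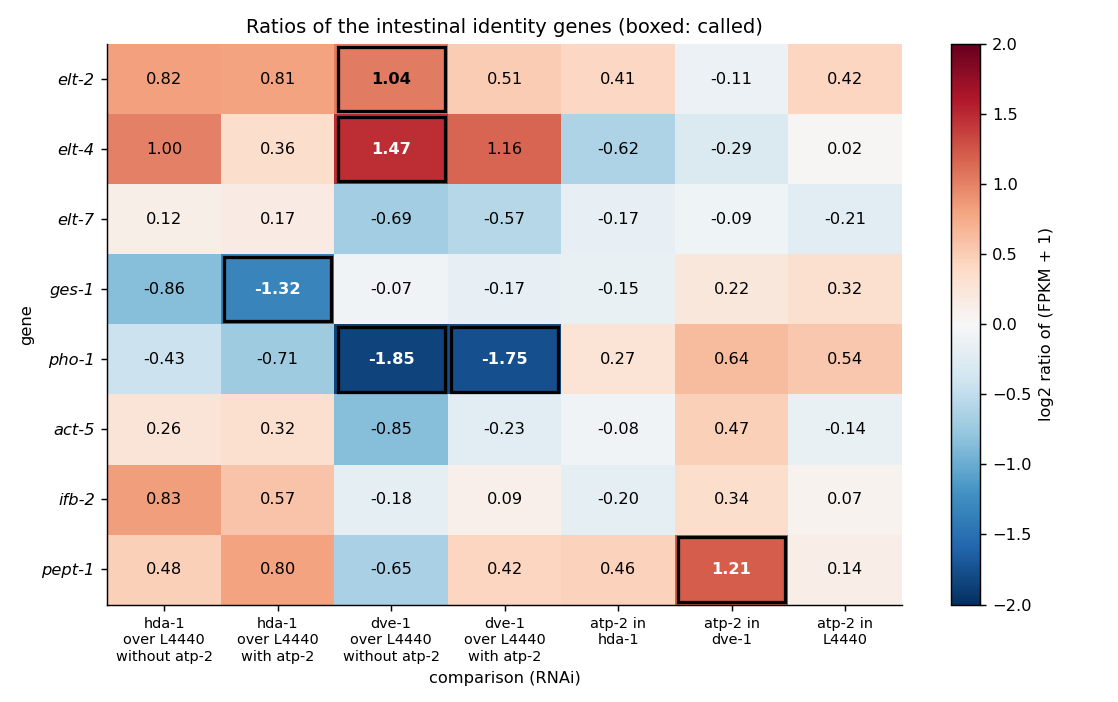
Log2 ratios of (FPKM + 1) for the 8 genes (rows) in the 7 comparisons (columns), each over its control, with red for higher and blue for lower. Boxes mark the called ratios: elt-2 (1.04), elt-4 (1.47) and pho-1 (-1.85) in dve-1 RNAi, pho-1 (-1.75) in dve-1+atp-2 RNAi, ges-1 (-1.32) in the hda-1+atp-2-labelled column and pept-1 (1.21) for atp-2 RNAi in dve-1 RNAi.

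Ratios also have to be read against the drift of all genes. The median log2 ratio of all kept genes was 0.22 for dve-1 RNAi and 0.16 for the hda-1-labelled column, both over L4440 RNAi, and 0.12 for dve-1+atp-2 RNAi and 0.13 for the hda-1+atp-2-labelled column, both over L4440+atp-2 RNAi. Median-of-ratios rescaling moved that of dve-1 RNAi to 0.02. Relative to these medians the 8 genes split: 2 of 8 lay above the median of all genes and 6 below it in dve-1 RNAi, whereas 5 lay above and 3 below it in the hda-1-labelled column. The median over the 8 was -0.42 in dve-1 RNAi and 0.37 in the hda-1-labelled column. Of the 56 member ratios, 5 changed sign under a rescaling, all of them within 0.14 of 0: those of elt-4, ifb-2 and pept-1 for atp-2 RNAi in L4440, of elt-7 in the hda-1-labelled column and of ifb-2 in dve-1+atp-2 RNAi.

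elt-2, the GATA factor that sustains intestinal gene expression, was lower in L4440 RNAi than in any other group. It was at 19.3 FPKM in the hda-1+atp-2-labelled column, 14.2 FPKM in the hda-1-labelled column, 15.4 FPKM in dve-1+atp-2 RNAi and 16.7 FPKM in dve-1 RNAi, against 10.55 FPKM in L4440+atp-2 RNAi and 7.61 FPKM in L4440 RNAi. Both L4440 groups thus lay below the other 4. Its level in dve-1 RNAi was 2.201 times that in L4440 RNAi (counting interval 1.86 to 2.62) and was called, although the log2 ratio of 1.04 came to 0.83 under median-of-ratios rescaling, below the threshold. The ratio in the hda-1-labelled column was 1.87 (1.57 to 2.24) and was not called. With atp-2 RNAi, elt-2 was at 1.39 times its level in L4440 (1.15 to 1.67) and at 1.36 times its level in the hda-1-labelled column (1.19 to 1.55), and at 0.922 times its level in dve-1 RNAi (0.809 to 1.05), where the interval includes 1.

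elt-4, which encodes a short GATA protein with no essential role known, was the least abundant of the 8. It was at 2.099 FPKM in the hda-1+atp-2-labelled column, 3.77 FPKM in the hda-1-labelled column, 4.41 FPKM in dve-1+atp-2 RNAi and 5.61 FPKM in dve-1 RNAi, against 1.42 FPKM in L4440+atp-2 RNAi and 1.38 FPKM in L4440 RNAi. Like elt-2, it was lower in both L4440 groups than in the other 4. Because its exons are short, these levels rest on an estimated 8.68 to 38.0 fragments per group. The ratio of 4.07 for dve-1 RNAi over L4440 RNAi accordingly has a counting interval of 1.86 to 9.21, and the ratio of 3.11 for dve-1+atp-2 RNAi over L4440+atp-2 RNAi one of 1.46 to 6.96. The second was not called because elt-4 stayed under 5 FPKM in both groups. Neighbours in the order of its 6 levels could not be separated at this depth in any of the 5 steps.

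elt-7, the GATA factor whose function overlaps with that of elt-2, had another pattern. It was at 17.7 FPKM in the hda-1+atp-2-labelled column, 19.9 FPKM in the hda-1-labelled column, 10.2 FPKM in dve-1+atp-2 RNAi and 10.9 FPKM in dve-1 RNAi, against 15.6 FPKM in L4440+atp-2 RNAi and 18.3 FPKM in L4440 RNAi. Both dve-1 RNAi groups lay below the other 4. The level was 59.8% of that in L4440 RNAi in dve-1 RNAi (ratio interval 0.489 to 0.734), and 65.3% of that in L4440+atp-2 RNAi in dve-1+atp-2 RNAi (0.530 to 0.801), and neither was called. So the GATA factors pointed apart in dve-1 RNAi by log2 ratio, 1.04 for elt-2 and 1.47 for elt-4 against -0.69 for elt-7. The early GATA factors that specify the lineage in the embryo, end-1, end-3, med-1 and med-2, stayed under 1 FPKM in every group, and med-1 was listed at 0 throughout.

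**Figure D2:**
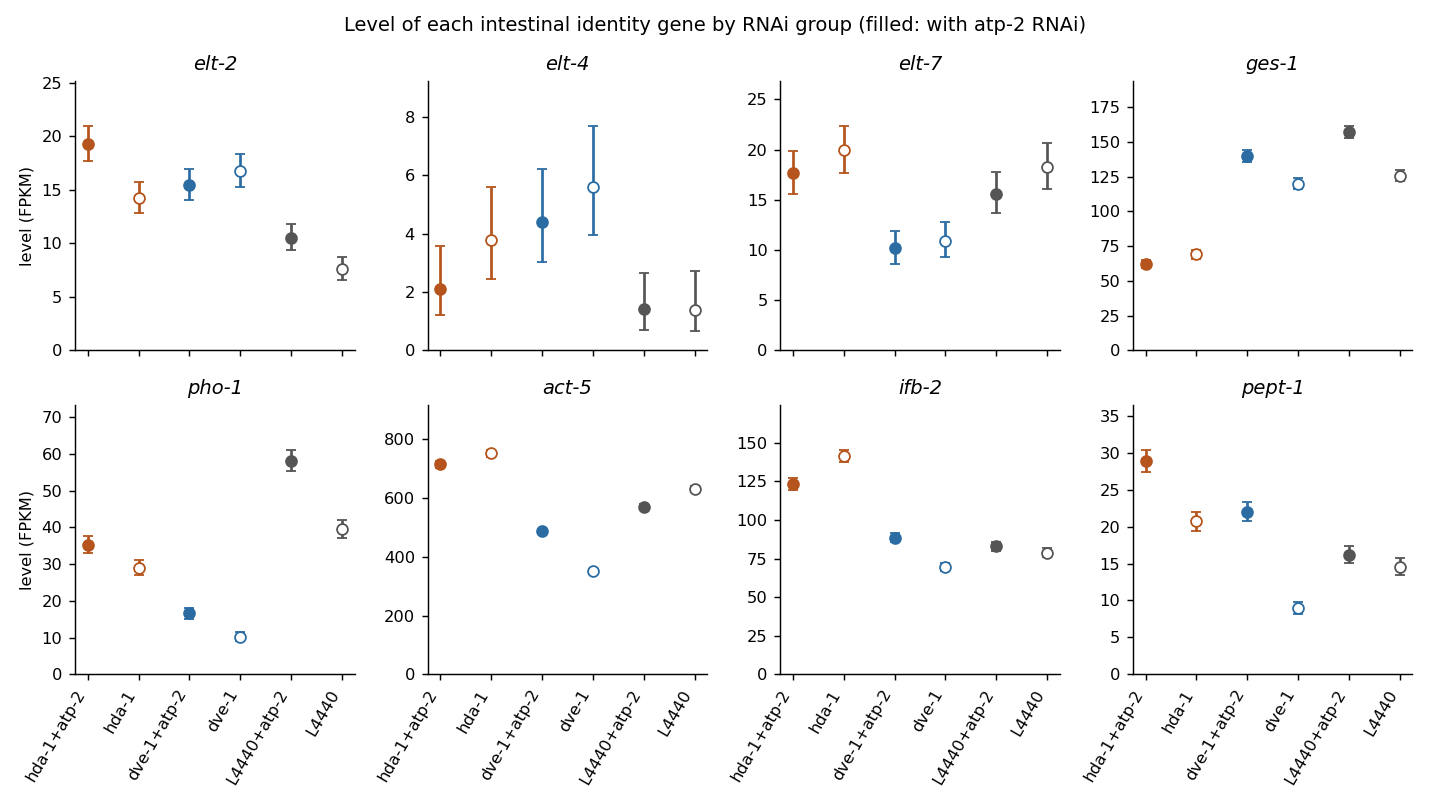
Level in FPKM of each of the 8 genes in the 6 groups, 1 point per group (2 libraries combined), with bars for the 95% Poisson counting interval, filled points with and open points without atp-2 RNAi, and an own linear axis from 0 for each gene. elt-2 and elt-4 lie lower in both L4440 groups, elt-7 and pho-1 lower in both dve-1 RNAi groups, and ges-1 lower in both hda-1-labelled columns.

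ges-1 was lowest in the hda-1-labelled columns and pho-1 in the dve-1 RNAi groups. ges-1, the gut carboxylesterase used as a classical marker of intestinal differentiation, was at 62.0 FPKM in the hda-1+atp-2-labelled column, 69.0 FPKM in the hda-1-labelled column, 139.8 FPKM in dve-1+atp-2 RNAi and 119.7 FPKM in dve-1 RNAi, against 157 FPKM in L4440+atp-2 RNAi and 126 FPKM in L4440 RNAi. Both hda-1-labelled columns lay below the other 4. The level was 39.5% of that in L4440+atp-2 RNAi (ratio interval 0.375 to 0.417) with atp-2 RNAi, which was called, and 54.9% of that in L4440 RNAi (0.520 to 0.580) without it, which was not. That second log2 ratio of -0.86 became -1.04 under median-of-ratios rescaling and was then called, as it also was under upper-quartile rescaling. In dve-1 RNAi ges-1 was at 95.2% of L4440 RNAi.

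pho-1, an intestinal acid phosphatase of the brush border, varied over the 6 groups more than the other 7 genes did, by 5.66 times between the lowest and the highest. It was at 35.2 FPKM in the hda-1+atp-2-labelled column, 29.0 FPKM in the hda-1-labelled column, 16.6 FPKM in dve-1+atp-2 RNAi and 10.3 FPKM in dve-1 RNAi, against 58.1 FPKM in L4440+atp-2 RNAi and 39.5 FPKM in L4440 RNAi. Both dve-1 RNAi groups lay at the bottom of the 6, and the hda-1-labelled columns lay between them and the L4440 groups. pho-1 was lower in dve-1 RNAi at 25.97% of L4440 RNAi (ratio interval 0.226 to 0.297) and in dve-1+atp-2 RNAi at 28.5% of L4440+atp-2 RNAi (0.256 to 0.316), and both were called under every scaling, filter and pseudocount tried. In the hda-1-labelled column it was at 73.4% of L4440 RNAi and in the hda-1+atp-2-labelled column at 60.6% of L4440+atp-2 RNAi, and neither was called. With atp-2 RNAi its level was 1.21 times as high in the hda-1-labelled columns (1.10 to 1.34), 1.61 times in dve-1 RNAi (1.39 to 1.88) and 1.47 times in L4440 (1.36 to 1.60), the same direction in all 3 backgrounds and not called in any.

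act-5, the actin of the intestinal microvilli, was the most abundant of the 8, ranking 314 among the kept genes by mean level. It was at 714 FPKM in the hda-1+atp-2-labelled column, 752 FPKM in the hda-1-labelled column, 486 FPKM in dve-1+atp-2 RNAi and 349.9 FPKM in dve-1 RNAi, against 570.3 FPKM in L4440+atp-2 RNAi and 629.6 FPKM in L4440 RNAi. Both dve-1 RNAi groups lay below both L4440 groups, and both hda-1-labelled columns above them. The level in dve-1 RNAi was 55.6% of that in L4440 RNAi (ratio interval 0.540 to 0.572). This log2 ratio of -0.85 was not called as deposited and was called after rescaling, at -1.08 by median-of-ratios and -1.06 by upper-quartile factors. With atp-2 RNAi, act-5 was at 1.39 times its level in dve-1 RNAi (1.35 to 1.43) and at 0.906 times its level in L4440 (0.884 to 0.928).

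ifb-2, an intermediate filament protein of the terminal web beneath the microvilli, was highest in the hda-1-labelled columns. It was at 123 FPKM in the hda-1+atp-2-labelled column, 141 FPKM in the hda-1-labelled column, 88.5 FPKM in dve-1+atp-2 RNAi and 69.5 FPKM in dve-1 RNAi, against 82.8 FPKM in L4440+atp-2 RNAi and 78.9 FPKM in L4440 RNAi. The other 4 groups lay within 69.5 to 88.5 FPKM. The ratio of 1.79 in the hda-1-labelled column over L4440 RNAi (1.70 to 1.88) and that of 1.49 with atp-2 RNAi (1.42 to 1.56) were not called. In dve-1 RNAi ifb-2 was at 88.1% of L4440 RNAi, so that the microvillar actin stood further below its control than this terminal web filament did.

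pept-1, which encodes the proton-coupled transporter of dipeptides and tripeptides, was the one gene of the 8 called for atp-2 RNAi. It was at 28.9 FPKM in the hda-1+atp-2-labelled column, 20.7 FPKM in the hda-1-labelled column, 22.02 FPKM in dve-1+atp-2 RNAi and 8.92 FPKM in dve-1 RNAi, against 16.2 FPKM in L4440+atp-2 RNAi and 14.6 FPKM in L4440 RNAi. The dve-1 RNAi group stood below the other 5. With atp-2 RNAi its level in dve-1 RNAi was 2.47 times as high (2.21 to 2.76), in the hda-1-labelled columns 1.39 times (1.29 to 1.51) and in L4440 1.11 times. Relative to L4440, dve-1 RNAi had a log2 ratio of -0.65 for pept-1 without atp-2 RNAi and of 0.42 with it.

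For each gene, the response to atp-2 RNAi was compared between backgrounds as the log2 ratio there minus that in L4440. In dve-1 RNAi 1 of 8 genes passed a difference of 1, beside 3.91% of all kept genes (1.14% higher): pept-1, whose log2 ratio was 1.21 in dve-1 RNAi and 0.14 in L4440. act-5 followed, with 0.47 in dve-1 RNAi and -0.14 in L4440, and elt-2 went the other way, with -0.11 in dve-1 RNAi and 0.42 in L4440. In the hda-1-labelled columns 0 of 8 passed, beside 3.55% of all kept genes. The widest gaps there were those of elt-4, with -0.62 in the hda-1-labelled columns and 0.02 in L4440, and ges-1, with -0.15 in the hda-1-labelled columns and 0.32 in L4440. The targets were not level between backgrounds either. With atp-2 RNAi, atp-2 was at 38.8% of its level in dve-1 RNAi, 64.3% in the hda-1-labelled columns and 54.6% in L4440. dve-1 was 1.29 times as high in dve-1+atp-2 RNAi as in dve-1 RNAi. The part of this in the differences was not tested, and they have no replicate check.

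Among all 40 neighbouring steps in the order of the levels of the 8 genes, 27 were larger than counting error and 13 were not. Of the 13, 5 were those of elt-4 and 4 those of elt-7, where only the step from L4440+atp-2 RNAi down to dve-1 RNAi was larger. Only neighbours were compared, so levels further apart in the order may still differ by more than counting error. elt-2 had 2 such steps, from dve-1 RNAi to dve-1+atp-2 RNAi and from there to the hda-1-labelled column. The 2 last were 1 step of ifb-2, between L4440+atp-2 RNAi and L4440 RNAi, and 1 of pept-1, between dve-1+atp-2 RNAi and the hda-1-labelled column. Counting error leaves out the variation between cultures.

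As a description over the 6 groups, which share libraries and strain and number too few for a test, the 8 genes did not follow a common pattern. Of the 28 pairs, 13 had a positive and 15 a negative Pearson correlation of log2(FPKM + 1), with a range of -0.93 for elt-4 with pho-1 to 0.88 for elt-7 with act-5. Among 6307 protein-coding genes with a mean of at least 10 FPKM, the nearest to elt-2 in pattern was lin-40 (r = 0.998), then csn-5 and drap-1 (both over 0.99). The nearest to elt-7 were ugt-23, T10B5.7 and H06H21.8, and to ges-1 coq-4, Y48C3A.3 and twk-5. inx-17, comt-3 and gst-13 came nearest to pho-1, and hyl-2, F23H11.4 and clec-84 to ifb-2. aqp-4 (r = 0.99), pgp-2 and trap-1 came nearest to act-5. The nearest to pept-1 were C55A6.4 (r = 0.98), acl-7 and Y39A1A.21. With so many candidates over 6 points, values this close to 1 are common: 146 genes exceeded 0.95 for ges-1 and 10 for pept-1. elt-4, with a mean under 5 FPKM, was left out.

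The 8 genes were then set beside 67 other genes of the intestine, of which 65 were kept: transcription factors, digestive enzymes, brush border, transport, gut granule, metal and defence genes and the vitellogenins. These lists were chosen with earlier results of these data known. Their counts therefore describe the listed genes and are not an independent result on intestinal genes. In dve-1 RNAi without atp-2 RNAi, 7 of these 65 were called higher and 15 lower (5 and 18 under either rescaling), with a median log2 ratio of -0.28 where all kept genes had 0.22 and were called higher in 7.08% and lower in 2.23%. With atp-2 RNAi, 4 were called higher and 8 lower, with a median of -0.23 where all kept genes had 0.12 and were called higher in 4.81% and lower in 2.39%. In the hda-1-labelled columns, 11 were called higher and 4 lower without atp-2 RNAi (10 and 6 by median-of-ratios) and 10 higher and 6 lower with it (8 and 8), with a median of 0.14 without and 0.11 with atp-2 RNAi, near those of all genes. Of all kept genes, 8.77% were called higher and 3.25% lower in the hda-1-labelled column, and 8.43% higher and 4.34% lower in the hda-1+atp-2-labelled column. atp-2 RNAi called 1 higher and 3 lower in the hda-1-labelled columns (0 and 4 by median-of-ratios), 5 higher and 8 lower in dve-1 RNAi, and 1 higher and 2 lower in L4440. The shares of all kept genes for atp-2 RNAi were 0.742% higher and 0.645% lower in the hda-1-labelled columns, 0.997% higher and 1.56% lower in dve-1 RNAi, and 1.89% higher and 0.652% lower in L4440.

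Digestive and secreted enzymes accounted for many of the lower calls in dve-1 RNAi. Of 15 genes listed as such, ges-1, pho-1 and the saposin-like genes spp-1 and spp-5 included, 7 were called lower and 2 higher. Of all kept genes, 2.23% were called lower and 7.08% higher. spp-1, which encodes a saposin-like antimicrobial peptide, was at 39.5 FPKM in dve-1 RNAi and 333 FPKM in L4440 RNAi, and the aspartyl protease gene asp-6 at 1379 FPKM in dve-1 RNAi and 4289 FPKM in L4440 RNAi. lipl-1, a lysosomal lipase gene, was at 0.0724 FPKM in dve-1 RNAi and 6.33 FPKM in L4440 RNAi. The 2 called higher were the cathepsin B-like protease genes cpr-4, at 431 FPKM in dve-1 RNAi and 147 FPKM in L4440 RNAi, and cpr-1. cpr-1 was at 2123 FPKM in dve-1 RNAi and 22.2 FPKM in L4440 RNAi, and both were also called higher in the hda-1-labelled column, cpr-1 at 1687 FPKM and cpr-4 at 3424 FPKM. asp-6 was also called lower in both hda-1-labelled columns (log2 ratios -1.06 without and -1.24 with atp-2 RNAi), whereas lipl-1 was called higher in both (2.38 and 1.01). The lower calls for pho-1 therefore stood among lower calls for other genes of this list, while ges-1 differed from them in dve-1 RNAi with a log2 ratio of -0.07.

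Of 15 transport genes, pept-1 included, 4 were called lower and 0 higher in dve-1 RNAi without atp-2 RNAi. Of all kept genes, 2.23% were called lower and 7.08% higher there. Lower were aqp-4, an aquaporin gene (log2 ratio -1.99), and smf-3, a divalent metal transporter gene (-1.90). Also lower were the heme importer gene hrg-4 (-1.11) and the inositol transporter gene hmit-1.1 (-1.04). For atp-2 RNAi in dve-1 RNAi, 4 were called higher, hrg-4 (1.57), pept-1 (1.21), hrg-1 (1.09) and aqp-4 (1.09), and 2 lower, hmit-1.1 (-1.29) and the zinc transporter gene cdf-2 (-1.01). In that comparison 0.997% of all kept genes were called higher and 1.56% lower. aqp-4 was at 7.73 FPKM in dve-1+atp-2 RNAi and 3.11 FPKM in dve-1 RNAi, against 16.6 FPKM in L4440+atp-2 RNAi and 15.3 FPKM in L4440 RNAi. hrg-4 was at 14.7 FPKM in dve-1+atp-2 RNAi and 4.28 FPKM in dve-1 RNAi, against 12.3 FPKM in L4440+atp-2 RNAi and 10.4 FPKM in L4440 RNAi. aqp-4 and hrg-4 were named because they were called lower in the first comparison and higher in the second. Their place in dve-1 RNAi, below L4440 RNAi and dve-1+atp-2 RNAi, follows from that choice. hmit-1.1 and cdf-2 went the other way and stood lowest of those 4 groups in dve-1+atp-2 RNAi. They were at 2.21 and 10.95 FPKM there, against 6.85 and 23.1 FPKM in dve-1 RNAi.

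**Figure D3:**
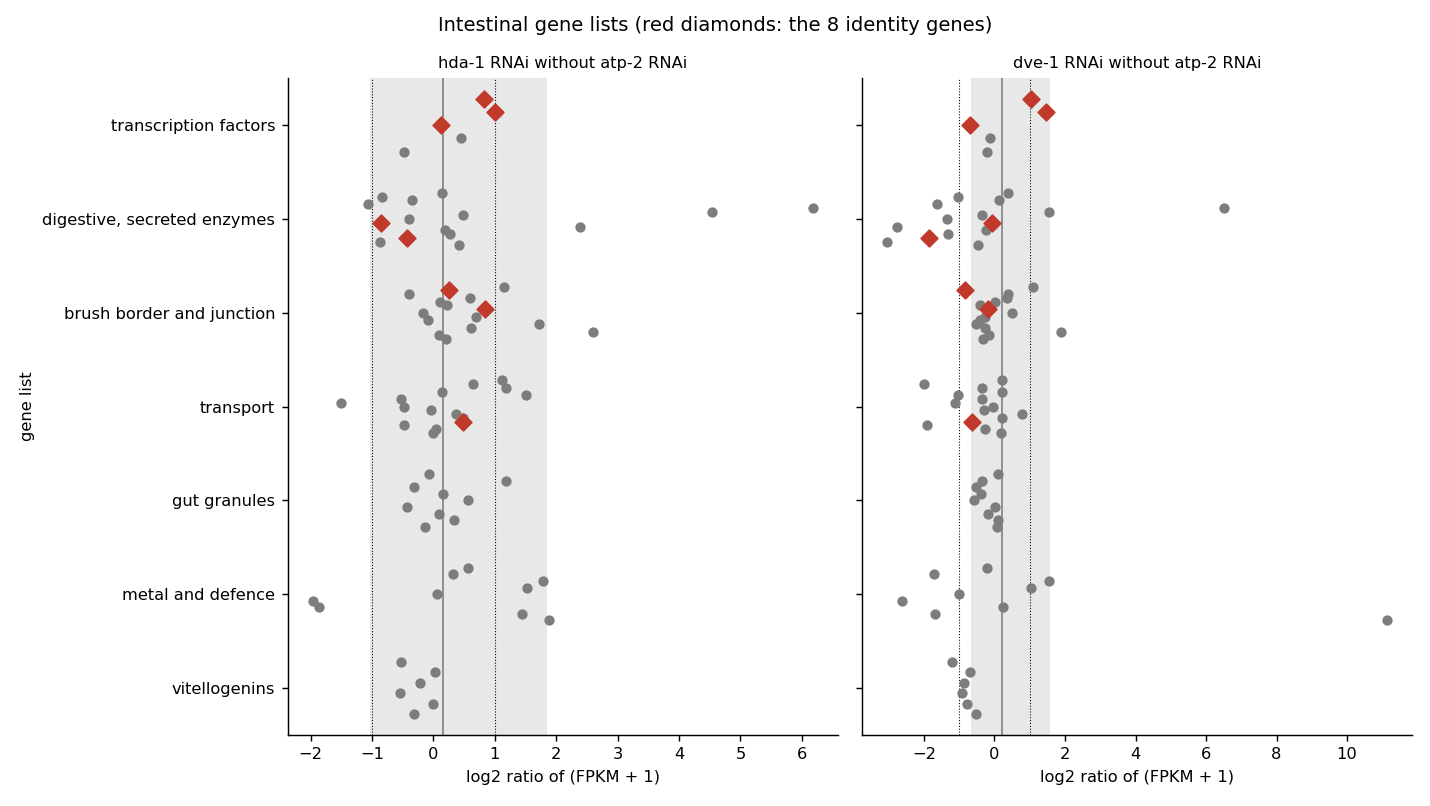
Log2 ratios of (FPKM + 1) over L4440 RNAi for the kept genes of 7 intestinal lists, 1 point per gene, in the hda-1-labelled column (left) and in dve-1 RNAi (right), with red diamonds for the 8 genes, a grey band from the 5th to the 95th percentile and a grey line at the median of all kept genes, and dotted lines at 2-fold. In dve-1 RNAi the 6 vitellogenins and 9 gut granule genes all lie to the left of the all-gene median of 0.22, and the far right point is spp-9, listed at 0 in L4440 RNAi.

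Of the brush border, terminal web and junction list, act-5 and ifb-2 included, 3 of 15 were called higher in the hda-1-labelled column and 2 of 15 in dve-1 RNAi, with 0 lower in both (1 lower, act-5, in dve-1 RNAi after rescaling), beside 8.77% of all kept genes called higher in the hda-1-labelled column and 7.08% in dve-1 RNAi. The genes called in the hda-1-labelled column were the intermediate filament genes ifp-1 (log2 ratio 2.59) and ifd-2 (1.73) and C15C7.5 (1.15), the gene of the intermediate filament partner BBLN-1. In dve-1 RNAi they were ifp-1 (1.89) and C15C7.5 (1.10). The 6 vitellogenin genes, which encode the yolk proteins made in the intestine, all had log2 ratios below 0 in dve-1 RNAi, with a median of -0.82. vit-1 was called lower (-1.21), beside 2.23% of all kept genes. After either rescaling 4 of the 6 were called lower. The 9 gut granule genes all lay below the median of all kept genes in dve-1 RNAi with 0 called.

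Metal and defence genes did not move as a block. In dve-1 RNAi 3 of 9 were called higher and 4 lower, beside 7.08% and 2.23% of all kept genes. In the hda-1-labelled column the counts were 3 and 2, beside 8.77% and 3.25%. spp-9, a saposin-like gene, was at 408 FPKM in dve-1+atp-2 RNAi and 2266 FPKM in dve-1 RNAi, against 0.270 FPKM in L4440+atp-2 RNAi, and was listed at 0 in L4440 RNAi. The lysozyme gene lys-7 was called lower in both, at 157 FPKM in dve-1 RNAi and 250.4 FPKM in the hda-1-labelled column, against 979 FPKM in L4440 RNAi. The metallothionein gene mtl-2 was called higher in the hda-1-labelled column, at 2585 FPKM against 954 FPKM in L4440 RNAi, and lower in dve-1 RNAi at 297 FPKM.

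Within their families the 8 genes often differed from their relatives. In dve-1 RNAi act-5 had a log2 ratio of -0.85, while the other actins act-1 to act-4 had ratios of -0.03 to 0.20. Actin genes are close copies, so that the split of fragments between them is uncertain even though uniquely mapped reads were kept. Of the acid phosphatase genes, pho-13 was called lower with pho-1 in dve-1 RNAi (log2 ratio -2.67), whereas pho-4 (2.09) and pho-8 (2.92) were called higher. pho-8 was also called higher in the hda-1-labelled column (2.64), together with pho-6 (1.49).

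Of the intermediate filament genes, ifb-1 (1.11), mua-6 (1.54), ifd-2 (1.73) and ifp-1 (2.59) were called higher in the hda-1-labelled column, where ifb-2 had 0.83. ifb-1 and mua-6 are known mainly from the epidermis. pept-2, a relative of pept-1, was called lower in both hda-1-labelled columns, at 6.79 FPKM in the hda-1+atp-2-labelled and 6.18 FPKM in the hda-1-labelled column, against 17.0 FPKM in L4440+atp-2 RNAi and 17.4 FPKM in L4440 RNAi. pept-1 had positive log2 ratios in the same comparisons, 0.80 with and 0.48 without atp-2 RNAi. Of the GATA factors outside the intestine, elt-3, which acts in the epidermis, was at 14.1 to 25.4 FPKM and was not called in any comparison.

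**Figure D4:**
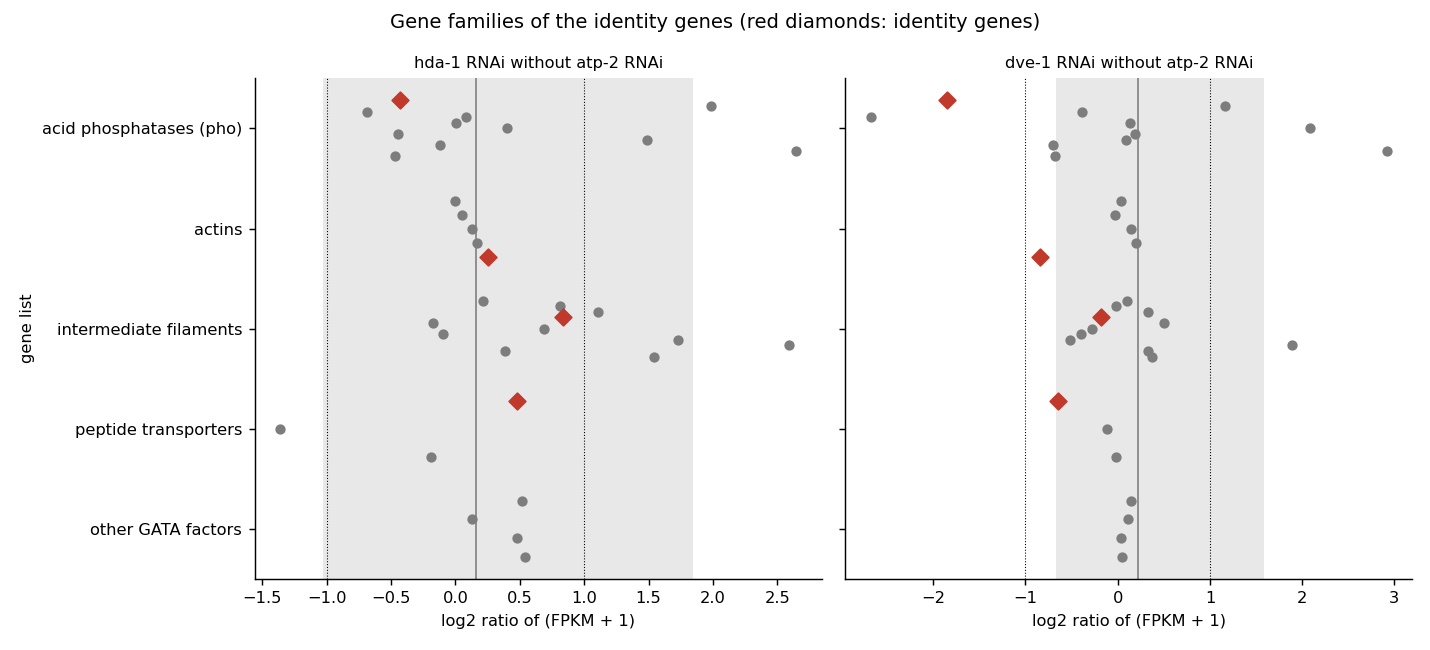
Log2 ratios of (FPKM + 1) over L4440 RNAi for the kept genes of 5 families, 1 point per gene, in the hda-1-labelled column (left) and in dve-1 RNAi (right), with red diamonds for pho-1, act-5, ifb-2 and pept-1 and band and lines as in the plot of intestinal lists. On the right act-5 (-0.85) lies apart from the other actins (-0.03 to 0.20), and pho-1 (-1.85) lies beside pho-13 (-2.67) and away from pho-4 and pho-8.

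Markers of other tissues were read beside these results. The summed level of the 8 genes was 1003 FPKM in the hda-1+atp-2-labelled column, 1050.3 FPKM in the hda-1-labelled column, 783 FPKM in dve-1+atp-2 RNAi and 592 FPKM in dve-1 RNAi, against 912 FPKM in L4440+atp-2 RNAi and 916 FPKM in L4440 RNAi. These sums are carried mostly by act-5. Over the 6 groups, 10 body wall muscle markers summed to 5499 to 6466 FPKM, 8 pharynx markers to 2751 to 3127 FPKM and 10 neuron markers to 477 to 606 FPKM, and none of these markers was at 0 in any group. In the hda-1-labelled column the neuron markers had log2 ratios above 0 in 10 of 10, with a median of 0.67 where all kept genes had 0.16 and 1 called higher, and the 7 kept pharynx markers had a median of 0.41. In the hda-1+atp-2-labelled column these medians were 0.68 for neuron and 0.78 for pharynx markers, where all kept genes had 0.13. In dve-1 RNAi they were 0.29 for neuron and 0.13 for pharynx markers, where all kept genes had 0.22. The neuron markers were above 0 in 10 of 10 there too, with 1 called higher. Body wall muscle markers had medians of 0.17 in the hda-1-labelled column and 0.18 in dve-1 RNAi. The 10 epidermis markers summed to 2540 FPKM in dve-1 RNAi and 4026 FPKM in L4440 RNAi, yet 2 of them were called higher there, dpy-5 (log2 ratio 5.63) and sqt-3 (2.22). The same 2 were called higher in the hda-1-labelled column, dpy-5 at 2.90 and sqt-3 at 2.44, where the 6 kept epidermis markers had a median of 0.63. In the hda-1+atp-2-labelled column 3 of 6 were called higher with a median of 0.84. Of all kept genes, 7.08% were called higher in dve-1 RNAi, 8.77% in the hda-1-labelled column and 8.43% in the hda-1+atp-2-labelled column. Of the 11 kept intermediate filament genes, 9 had log2 ratios above 0 in the hda-1-labelled column. These included ifb-1, mua-6 and ifb-2, and also ifp-1, ifd-2 and ifc-2 (0.69) of the brush border list. The 2 below 0, ifc-1 (-0.17) and ifd-1 (-0.09), are on that list as well. The 14 markers of oocytes and the female germ line summed to 2280 to 3777 FPKM, highest in dve-1 RNAi, so that germ line transcripts were present in these worms at 20 °C. Their log2 ratios were above 0 in 14 of 14 in dve-1 RNAi, with a median of 0.63 where all kept genes had 0.22, and in 6 of 14 in the hda-1-labelled column, with a median of -0.05. Ratios for atp-2 RNAi were mostly above 0 as well. In L4440 13 of 14 were, with a median of 0.55 where all kept genes had 0.11. The hda-1-labelled columns had 14 of 14 (0.48, all kept genes 0.06) and dve-1 RNAi 12 of 14 (0.30, all kept genes 0.02). The part of these other tissues in the levels of the intestinal genes was not tested.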

How the data were processed

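Total RNA from whole worms was extracted with Trizol, and the submitters' processing notes and the methods name TopHat2 2.1.1, the ce11 genome, uniquely mapping reads and Cufflinks. The authors deposited FPKM with 1 value per gene and group, both libraries combined, so that depth per library is unknown. The table holds no fold change or p-value of the authors. The origin of the 2 libraries per group (1 culture or separate ones) and their strandedness are not given in the sources used here. Positions came from Ensembl release 115 of WBcel235, the assembly of ce11, matched by identifier for 45990 genes. Ratios, filters and calls were computed with Python 3.11.15, pandas 2.3.3, numpy 2.4.6 and scipy 1.17.1, and figures with matplotlib 3.10.9. Depth was estimated from genes with 1000 to 1500 nt of exon. The calling procedure was run on simulated fragment counts with planted changes. Those counts held counting error only, so the run does not cover variation between cultures or a shift of all genes. The 8 genes and the 20 gene lists were chosen with earlier results of these data known. Named genes were the 8, the RNAi targets, families, up to 4 called genes per list and comparison with the largest absolute log2 ratio, and for the 7 genes with a mean of at least 5 FPKM the 3 genes nearest in pattern. C15C7.5 was matched by identifier. The alternatives were pseudocounts of 0.1 and 5, a minimum mean of 5 FPKM, no filter, 2 rescalings, and thresholds of 1.5-fold and 3-fold. Promoter motifs were not analysed here.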

Additional observations from a re-analysis of the deposited data

Results flagged for a closer look

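In 3 instances the response of a gene to atp-2 RNAi differed between backgrounds, either by a log2 difference of 1 or more or because the log2 ratios had opposite signs with counting intervals that both left out 0. pept-1 had a log2 ratio of 1.21 in dve-1 RNAi and 0.14 in L4440, a difference of 1.07. act-5 had 0.47 in dve-1 RNAi and -0.14 in L4440, a difference of 0.62. ges-1 had -0.15 with the label hda-1 RNAi and 0.32 in L4440, a difference of -0.47. Each rests on 4 values with both libraries of a group combined, and the difference was not tested in any of them. All 3 use the same L4440 columns. hda-1 read higher, not lower, in the hda-1-labelled columns. The level of atp-2 with atp-2 RNAi, relative to that without it, also differed between backgrounds, as given above.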

How the results depend on the processing

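Counts of the 8 genes called were recomputed under 8 alternatives. With a pseudocount of 5, the count fell to 0 for atp-2 RNAi in dve-1 RNAi, to 1 in dve-1 RNAi alone and to 0 for the difference of atp-2 effects in dve-1 RNAi. The shares of all kept genes called there were 1.63%, 6.07% and 2.47%, in that order. Without filter and minimum level it was 1 in the hda-1-labelled column (elt-4) and 2 in dve-1+atp-2 RNAi (elt-4 added). Of all 46245 genes, 6.37% were called in the first and 3.27% in the second. Median-of-ratios and upper-quartile rescaling each gave 1 in the hda-1-labelled column (ges-1), beside 11.8% and 11.7% of all kept genes. At 1.5-fold the counts were 2 for atp-2 RNAi in dve-1 RNAi, 3 in the hda-1-labelled column, 6 in dve-1 RNAi, 4 in the hda-1+atp-2-labelled column and 2 for the difference in dve-1 RNAi. The shares of all kept genes rose too, to 6.19%, 21.5%, 17.0%, 22.8% and 10.2% in the same order. At 3-fold they were 0 for atp-2 RNAi in dve-1 RNAi, 1 in dve-1 RNAi, 0 in the hda-1+atp-2-labelled column and 0 for the difference in dve-1 RNAi. All kept genes were then called in 1.19%, 5.06%, 7.18% and 2.02%, in the same order. The other 56 recomputed counts stayed within 1.5 times. Of the recomputed ratios and differences of single genes, 11 lost and 17 gained a call. The 1.5-fold threshold gave 11 of the gains and the 3-fold threshold 5 of the losses, and each can move calls only that way. No called one changed sign, which is no check, since called log2 ratios lie at 1 or beyond. No replicate could be left out, since the libraries of a group are combined. No paired analysis was possible because the columns carry no replicate number. At 5 FPKM a gene with 1 kb of exon rests on 81.1 to 93.5 estimated fragments, so that counting error limits elt-4 most.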
